A study of Mus musculus with 6 samples.

Results

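The 9 genes described here encode the enzymes that make fatty acids from citrate and acetyl-CoA, supply reducing power for that synthesis, desaturate the products and activate them as acyl-CoA. They were chosen by name (Acly, Acaca, Fasn, Scd1, Scd2, Fads1, Fads2, Acsl3 and Me1) and read through every probe set whose platform annotation gave exactly 1 of these symbols, 24 probe sets in all. They were 9 of 18194 genes named on the array, and all 9 passed the filter on low values, a log2 value of at least 4, on all 6 arrays. The samples were sciatic nerves from pups of mixed strain at postnatal day 2, with 3 double knockout (dKO) samples against 3 control samples. The dKO pups carried the DhhCre transgene and lacked Hdac1 and Hdac2, 2 histone deacetylases, in Schwann cells. Desert hedgehog (Dhh), whose promoter drives the Cre, is expressed in the Schwann cell lineage, and the cells of the nerve in which Cre acted were not measured here. Controls are labelled as negative for DhhCre, and the series' design text calls them littermates. The perineurium had been removed from the nerves of both groups. No label says how many pups or nerves went into a sample, so the tests measure the spread between these samples, which may be technical.

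De novo fatty acid synthesis starts in the cytosol, where citrate is cleaved to acetyl-CoA, acetyl-CoA is carboxylated to malonyl-CoA, and fatty acid synthase condenses both to palmitate at the expense of NADPH. Stearoyl-CoA desaturases then place a double bond in saturated acyl chains, and the Fads desaturases act on the essential polyunsaturated fatty acids. Myelin is a membrane rich in lipid, and myelinating Schwann cells make much of that lipid themselves. Many of these genes are known targets of the SREBP transcription factors, which sterols and the Insig proteins hold inactive in the endoplasmic reticulum, while Me1 is also a known target of the oxidative stress factor NFE2L2.

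Promoter windows are shown for the called genes that had one, which are 3 genes that were lower in dKO nerves (Acaca, Fasn and Acsl3) and Me1, which was higher, so that the sequence upstream of genes that moved in opposite directions can be compared. The windows run from 250 bases before to 10 after the gene start in RefSeq (GRCm38.p6), 5′ to 3′ on the strand of the gene. Of the 9 genes, 6 were matched in that table (Acly, Acaca, Fasn, Fads2, Acsl3 and Me1, the last with 2 windows). Capitals mark matches on either strand to any of 5 motifs, which are CCAAT, the GC box GGGCGG, the E-box CACGTG, the sterol element TCACNCCAC and the antioxidant element TGACNNNGC.
Acaca, chr11:84195188-84195447 (plus strand): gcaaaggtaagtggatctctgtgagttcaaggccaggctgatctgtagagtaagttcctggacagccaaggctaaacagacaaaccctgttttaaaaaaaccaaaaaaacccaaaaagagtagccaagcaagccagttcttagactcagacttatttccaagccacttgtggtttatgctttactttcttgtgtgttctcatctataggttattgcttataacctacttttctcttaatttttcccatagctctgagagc
Fasn, chr11:120824538-120824797 (minus strand): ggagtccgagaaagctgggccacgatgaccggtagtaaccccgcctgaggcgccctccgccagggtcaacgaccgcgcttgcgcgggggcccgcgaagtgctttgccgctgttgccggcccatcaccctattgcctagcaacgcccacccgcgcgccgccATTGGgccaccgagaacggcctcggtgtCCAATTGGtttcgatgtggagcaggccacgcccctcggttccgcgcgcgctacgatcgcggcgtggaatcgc
Acsl3, chr1:78657575-78657834 (plus strand): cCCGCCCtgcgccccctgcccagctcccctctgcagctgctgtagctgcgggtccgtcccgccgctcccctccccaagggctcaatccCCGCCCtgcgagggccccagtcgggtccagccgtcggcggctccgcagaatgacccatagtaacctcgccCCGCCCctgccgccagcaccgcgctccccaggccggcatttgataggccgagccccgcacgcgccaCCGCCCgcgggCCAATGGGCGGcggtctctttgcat
Me1, chr9:86695905-86696164 (minus strand): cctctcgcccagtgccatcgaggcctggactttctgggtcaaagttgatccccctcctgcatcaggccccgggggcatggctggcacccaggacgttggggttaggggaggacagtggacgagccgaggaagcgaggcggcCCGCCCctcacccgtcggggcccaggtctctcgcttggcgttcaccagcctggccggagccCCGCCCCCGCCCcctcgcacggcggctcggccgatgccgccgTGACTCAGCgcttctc

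Which start of a gene the nerve uses was not measured, so a window here need not be the promoter in use. Read from these letters, the Acaca window held none of the 5 motifs. Fasn held 3 CCAAT matches, 2 of them overlapping in 1 palindrome, and no GC box. Acsl3 held 5 GC boxes and 1 CCAAT next to its gene start, which a GC box directly adjoins. The first Me1 window held 3 GC boxes, 2 of them directly adjoining, and the only TGACNNNGC match among the 7 windows. Of the windows not printed, Acly held 4 GC boxes, Fads2 1 GC box and the second Me1 window 1 CCAAT. Of 32851 windows of the same length in the table, 34.6% held CCAAT, 33.4% GGGCGG, 10.7% TGACNNNGC, 6.3% CACGTG and 1.1% TCACNCCAC. None of the 7 windows held the exact letters of CACGTG or TCACNCCAC. These are matches of letters and not measured binding sites.

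Of the 9 genes, 5 fell in dKO nerves (Acaca, Fasn, Scd1, Scd2 and Acsl3), 1 rose (Me1) and 3 did not pass the test (Acly, Fads1 and Fads2). Among all 14550 genes tested, 9.38% were lower and 12.6% higher at an adjusted p under 0.05 (22.0% in either direction). The fall was at least 2-fold for 4 of the 9, against 4.36% of all genes. The median log2 change of the 9 genes was -0.84, beside 0.01 over all genes tested. All changes are log2 values of dKO minus control, with the standard error (SE) and the adjusted p from limma over all genes, and group values are mean ± SD with n = 3. The nerve is a mixture of cells, so fewer cells of a type and less RNA per cell cannot be told apart in any of these values. The number called lower was 4 without any one of the control arrays or dKO 2, since the call of Scd2 was then lost. It was 7 when arrays were centred on their median, a setting in which 11.3% of all genes were lower and 11% higher, and 6 when probe sets whose probes can also match other transcripts (IDs ending in x_at) were left out.

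**Figure D1:**
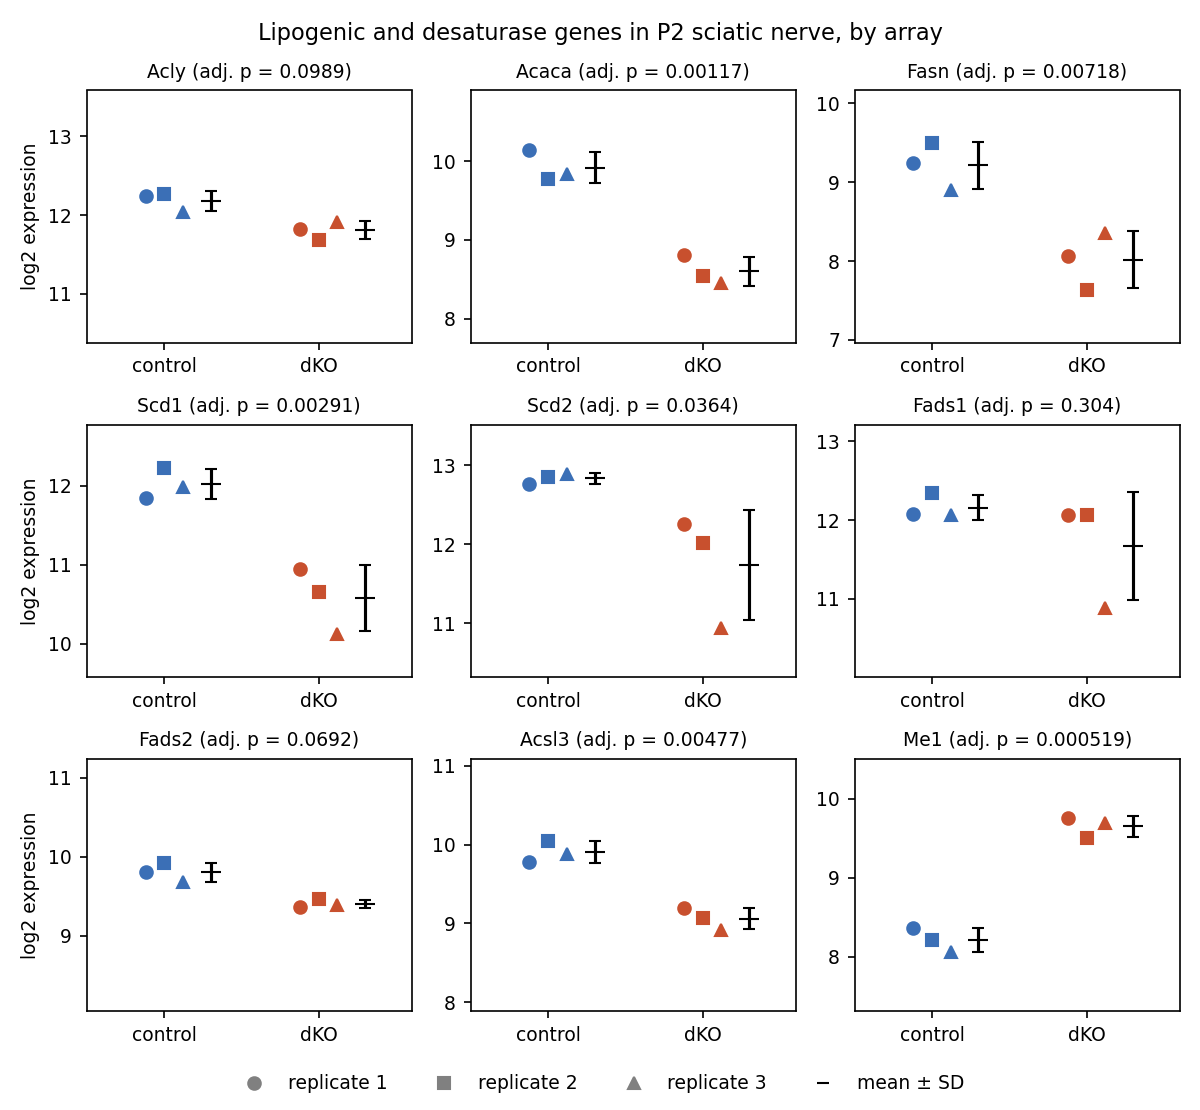
Log2 expression of the 9 genes (y axis, each panel spans the same range of log2 units) on the 3 control and 3 dKO arrays, with mean ± SD in black. The groups are apart for every gene except Fads1, where only dKO 3 lies clearly below the control arrays, and Me1 alone is higher in dKO.

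Transcripts of both enzymes that build the acyl chain, Acaca and Fasn, were lower. Acaca, which encodes the acetyl-CoA carboxylase that makes malonyl-CoA, had log2 values of 10.14, 9.77 and 9.84 on the control arrays and of 8.81, 8.54 and 8.45 on the dKO arrays. The groups did not overlap, and the lowest control array stood almost a full log2 unit above the highest dKO array. Its mean was 9.91 ± 0.20 in control and 8.60 ± 0.19 in dKO. The log2 change was -1.31 (SE 0.17, adjusted p = 0.00117), with 40.2% of the control level remaining. The second Acaca probe set fell by 0.98 (SE 0.19, adjusted p = 0.00829).

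Fasn, the multifunctional enzyme that assembles palmitate, is represented by 1 probe set. It read 9.24, 9.49 and 8.90 in control and 8.06, 7.63 and 8.36 in dKO nerves. Its groups did not overlap either, although they came closest in control 3 and dKO 3. The log2 change was -1.20 (SE 0.23, adjusted p = 0.00718), so that 43.6% of the control level remained. It kept its call without any single array, with changes from -1.37 to -1.004.

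Acly, the ATP citrate lyase that feeds acetyl-CoA into the pathway, differed between its probe sets. On the brightest probe set, an x_at one, the control arrays read 12.24, 12.27 and 12.04 and the dKO arrays 11.83, 11.69 and 11.91. Those groups did not overlap but lay close together, and the log2 change of -0.37 (SE 0.14, 95% CI -0.70 to -0.05) did not pass (adjusted p = 0.0989). A pair of Acly probe sets without that suffix passed, with changes of -0.65 (SE 0.15) and -0.54 (SE 0.15) and adjusted p-values of 0.0174 and 0.0378. On the first of them the control arrays read 10.45, 10.45 and 10.20 against 9.81, 9.69 and 9.67 in dKO. Another, near the low-value limit, had a change of -0.17 (adjusted p = 0.816), and 2 more were under the limit of 4 on all arrays. Without x_at probe sets, an alternative chosen after seeing the data, Acly changed by -0.65 (adjusted p = 0.0129).

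Me1 encodes the cytosolic malic enzyme, which turns malate into pyruvate and yields NADPH. It was the only one of the 9 genes that was higher in dKO nerves. Its values were 8.36, 8.21 and 8.06 in control and 9.75, 9.51 and 9.69 in dKO, with every dKO array above every control array by more than a log2 unit. The mean was 8.21 ± 0.15 in control and 9.65 ± 0.13 in dKO, and the change of 1.44 (SE 0.15, adjusted p = 0.000519) is a 2.71-fold rise. The other Me1 probe set rose by 1.07 (SE 0.20, adjusted p = 0.00780). With single arrays left out the change stayed between 1.36 and 1.51 and was called each time. The printed Me1 window is the one with the antioxidant element letters, which run across its gene start. Such letters were held by 10.7% of all windows in the table.

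The stearoyl-CoA desaturase genes were lower on all 5 of their probe sets. Scd1 read 11.85, 12.23 and 11.98 in control and 10.95, 10.65 and 10.12 in dKO nerves. All dKO arrays lay below all control arrays, with dKO 3 lowest. The log2 change was -1.45 (SE 0.22, adjusted p = 0.00291). The dKO level was 36.7% of control, and this was the deepest fall among the 9 genes on the probe sets used. The other Scd1 probe set varied less within the groups and fell by 1.62 (SE 0.15, adjusted p = 0.000360).

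Scd2, the desaturase paralog that is prominent in the nervous system, had tight control values of 12.76, 12.85 and 12.89. Its dKO values of 12.25, 12.01 and 10.94 were spread over more than a log2 unit, with dKO 3 far below the other two. The log2 change was -1.10 (SE 0.31, adjusted p = 0.0364). The call was lost without control 1, control 2, control 3 or dKO 2 (adjusted p = 0.0790, 0.0925, 0.0835 and 0.0573). Without dKO 3 the change was -0.70 and was called (adjusted p = 0.0163). Its other probe sets fell further, by 2.14 and 1.72 (SE 0.40 and 0.18, adjusted p = 0.00768 and 0.000675). With all 3 averaged the change was -1.65 (adjusted p = 0.00259). On the last of these single probe sets dKO 3 did not stand apart, with dKO values of 8.51, 8.25 and 8.26 against 10.31, 9.76 and 10.12 in control.

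**Figure D2:**
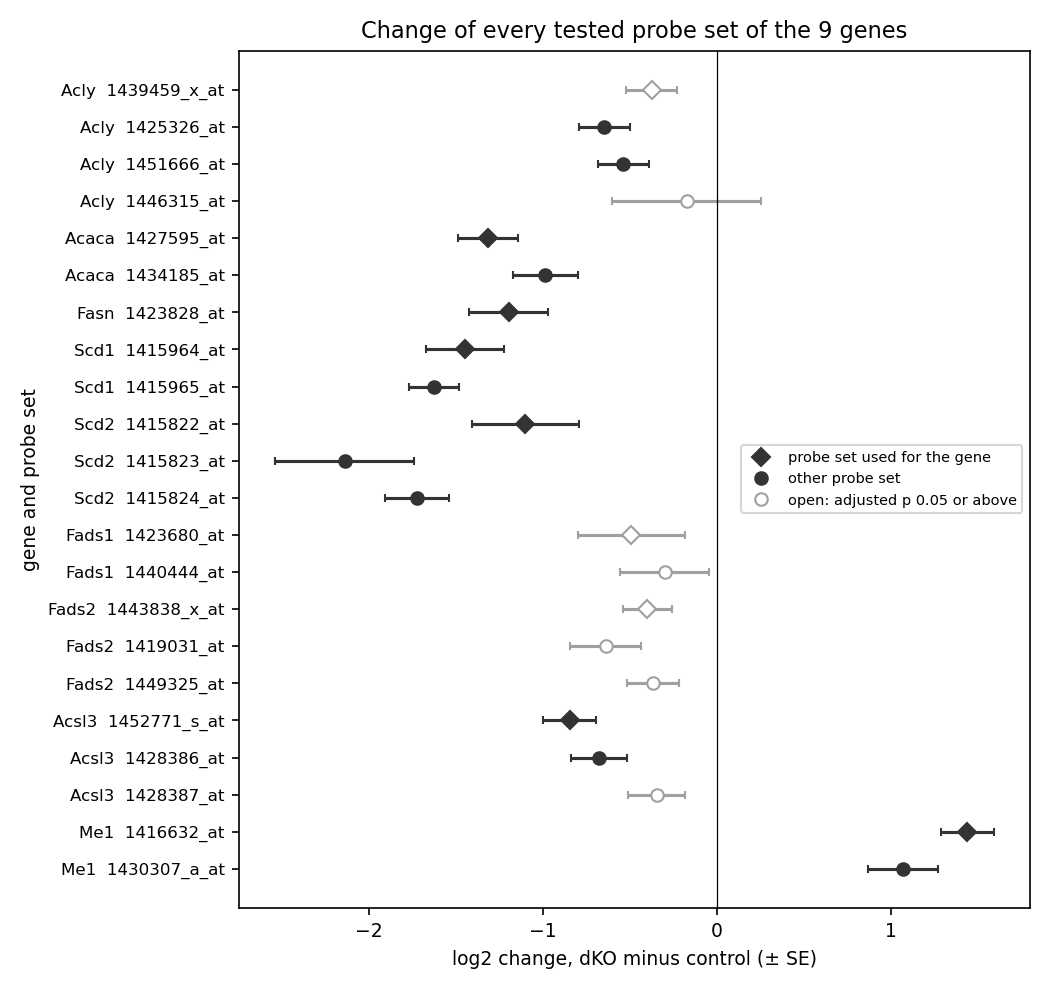
Log2 change (dKO minus control, x axis) with SE for each of the 22 tested probe sets of the 9 genes, filled where the adjusted p over all probe sets was under 0.05. Of the 22, 12 were lower and 2 (both Me1) higher at that threshold, and the 3 Scd2 probe sets range from -2.14 to -1.10. The 22 are repeated readings of 9 genes, and the share called over all probe sets is not given here. Over all genes tested, 9.38% were lower and 12.6% higher.

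Whether Scd1 and Scd2 changed by unequal amounts was asked within each array. The log2 value of Scd2 minus that of Scd1 was 0.91, 0.62 and 0.91 on the control arrays and 1.30, 1.36 and 0.82 on the dKO arrays, and the groups overlapped. This difference changed by 0.35 (SE 0.20), with p = 0.3 in an exact two-sided permutation test, where 3 against 3 arrays cannot give less than 0.1. With all probe sets of each gene averaged, it changed by -0.12. Probe sequences were not used here, so how far probes of these similar paralogs detect each other was not tested.

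Fads1 and Fads2 carry out successive desaturation steps on the way from the essential fatty acids to long-chain polyunsaturated ones. Fads2, which acts at the first step, was read from an x_at probe set, as Acly was. Its values were 9.81, 9.92 and 9.68 in control and 9.37, 9.46 and 9.39 in dKO nerves. Every dKO array lay below every control array by a small margin, and the log2 change was -0.40 (SE 0.13, 95% CI -0.71 to -0.09, adjusted p = 0.0692). The other Fads2 probe sets changed by -0.64 and -0.36 (adjusted p = 0.0642 and 0.134 over all probe sets). Without x_at probe sets, the alternative chosen after seeing the data, Fads2 changed by -0.64 and did not pass (adjusted p = 0.0547). With its probe sets averaged, Fads2 passed with a change of -0.47 (adjusted p = 0.0372), and it also passed with centred arrays (-0.48, adjusted p = 0.0383).

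Fads1, which acts later in the same chain, read 12.08, 12.34 and 12.06 in control. Its dKO values were 12.06, 12.07 and 10.88, so 2 dKO arrays lay within the control range and dKO 3 was more than a log2 unit lower. The log2 change of -0.49 (SE 0.31, 95% CI -1.20 to 0.22, adjusted p = 0.304) did not pass, and it was -0.09 without dKO 3. The second Fads1 probe set had the same order, with 8.01, 8.32 and 7.30 on the dKO arrays against 7.97, 8.24 and 8.32 in control. Fads2 minus Fads1 changed by 0.09 (SE 0.39, exact two-sided permutation p = 1), and by -0.30 without dKO 3.

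Acsl3 encodes a long-chain acyl-CoA synthetase of the endoplasmic reticulum and lipid droplets, which activates fatty acids for incorporation into lipids. It read 9.78, 10.05 and 9.89 in control and 9.19, 9.07 and 8.92 in dKO nerves. The groups did not overlap, and the log2 change was -0.84 (SE 0.15, adjusted p = 0.00477), with 55.7% of the control level remaining. Of its other probe sets, 1 fell by 0.68 (SE 0.16, adjusted p = 0.0205) and a dimmer one had a change of -0.35 (adjusted p = 0.189). Its window above is the one in which the CCAAT, held by 34.6% of all windows in the table, lies closest to the gene start.

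Across the 9 genes, 8 had groups that did not overlap, 7 of them lower and 1 higher in dKO. Over all genes tested the groups did not overlap for 40.9%, 18.4% lower and 22.6% higher. The dKO arrays were not equal: over the 8 genes with a negative change, the median deviation from the control mean was -0.65 on dKO 1, -0.83 on dKO 2 and -1.13 on dKO 3. For 5 of the 9 genes dKO 3 was the lowest dKO array, but for Fasn and Acly it was the highest. Fads1 and Scd2 were among 60 of 14550 genes (0.41%) for which dKO 3 lay at least 1 log2 unit under both other dKO arrays, a pattern found for 11 genes on dKO 1 and 12 on dKO 2.

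**Figure D3:**
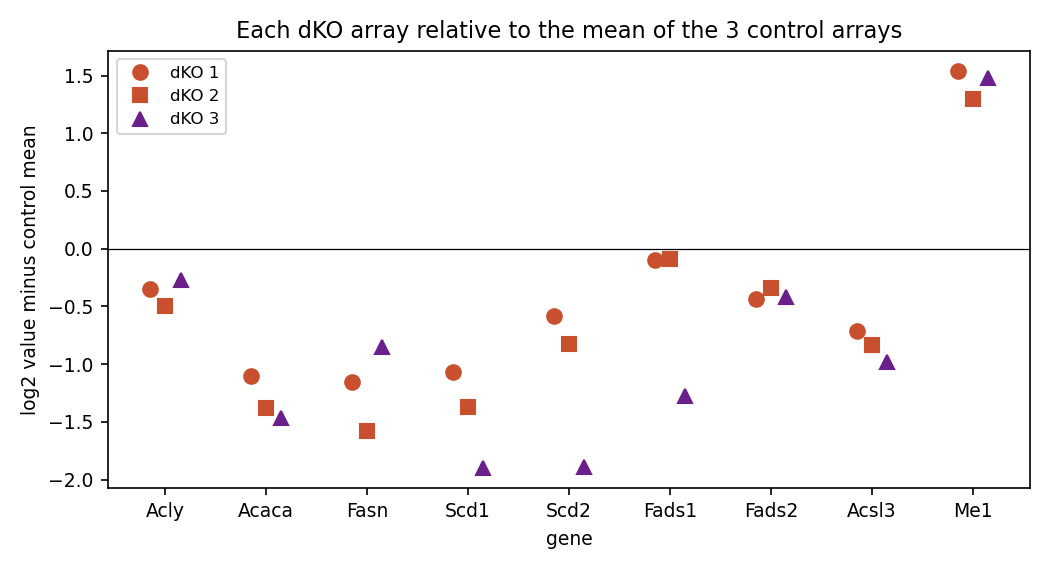
Log2 value of each dKO array minus the mean of the 3 control arrays (y axis) for the 9 genes. Fads1 and Scd2 are far lower on dKO 3 (-1.28 and -1.89) than on the other dKO arrays, while the 3 arrays run only from 1.30 to 1.54 for Me1.

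Levels of the targeted genes and of cell type markers are given here beside these results. For the marker counts, the shares over all genes were 9.38% lower and 12.6% higher. Hdac1 and Hdac2 were lower in dKO nerves (log2 changes -1.55 and -1.26, adjusted p = 0.000271 and 0.00103), and that of Hdac2 was -0.71 with its 3 probe sets averaged. All 8 named markers of myelinating Schwann cells were lower, with a median change of -3.91, and their summed linear level ran from 49635 to 53043 in control and from 10393 to 22830 in dKO. It was highest among dKO arrays in dKO 1. Of 7 pan-Schwann genes 2 were lower and 1 higher (summed level 7530 to 9648 and 4243 to 5790). Fibroblast markers were higher for 4 of 7 (39435 to 42356 and 44864 to 47329). Of 6 named macrophage markers 5 were tested and 1, Aif1, was higher (2 higher in limma at an unadjusted p under 0.05). Their summed level was 1411 to 1856 in control, 2178 and 2187 on dKO 1 and dKO 2, and 5119 on dKO 3. Adipocytes are rich in these enzymes. Of 10 named adipocyte markers 7 were tested, with a median change of 0.07. The other 3 (Adipoq, Lep and Cidea) were under the low-value limit on all 6 arrays. The summed level of the 10 was 992 to 2364 in control and 5350 to 9003 in dKO. Most of that sum was Fabp4, at log2 values of 9.22 to 10.88 in control and 12.16 to 12.87 in dKO. Of the 7 tested, 2 (Fabp4 and Lpl) were higher in limma at an unadjusted p under 0.05. Fabp4 alone was called, with a rise of 2.30 (adjusted p = 0.00459, and 1.5 with its 4 probe sets averaged). It is also expressed by endothelial cells and macrophages. Lpl had a change of 1.12 (adjusted p = 0.0927). Of the endothelial list 0 of 5 passed in limma (2 higher at an unadjusted p under 0.05). Of the perineurial list 1 of 5 was lower and 1 higher (1 lower and 3 higher unadjusted), with a median change of 0.45. Of the axon and skeletal muscle lists 1 of 5 and 1 of 6 were higher (2 and 1 unadjusted). The part of the Schwann cell, fibroblast, macrophage and other markers in the changes of the 9 genes was not tested.

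Of 14 tested genes that supply carbon and cofactors to fatty acid synthesis 7 fell, 1 rose and 6 did not pass, with a median change of -0.52. Over all genes 9.38% fell and 12.6% rose. Pank1, a pantothenate kinase of coenzyme A synthesis, fell by 1.34 (SE 0.17, adjusted p = 0.00109) and passed on 2 of 4 probe sets, with a change of -0.89 when the 4 were averaged. Mid1ip1, which encodes an activator of acetyl-CoA carboxylase, read 10.01, 10.32 and 10.17 in control and 9.10, 9.16 and 8.84 in dKO, and fell by 1.14 (SE 0.15, adjusted p = 0.00162). Acss2, the cytosolic acetyl-CoA synthetase, fell by 1.13 (SE 0.26, adjusted p = 0.0172), and all 3 of its probe sets were called. Leaving out control 2, dKO 1 or dKO 2 raised its adjusted p past the threshold, to 0.0619 at most. Oxsm, a mitochondrial fatty acid synthase component, fell by 0.99. It did not pass when its 5 probe sets were averaged (change -0.39, adjusted p = 0.101), nor when control 1 or 2 or dKO 1 or 3 was left out. The gene that rose was Acot7, an acyl-CoA thioesterase (0.94, SE 0.14). Without control 2 or dKO 1 the number called lower was 4, and without dKO 3 the number called higher was 2. Slc25a1, which carries citrate out of mitochondria, had a change of -0.45 (adjusted p = 0.182), Thrsp one of -0.30 (adjusted p = 0.145), and Acacb, the carboxylase paralog of mitochondria, one of 0.29 (adjusted p = 0.369).

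Among 13 tested genes of NADPH supply other than Me1, 3 rose and 0 fell in limma at an adjusted p under 0.05. Over all genes 12.6% rose and 9.38% fell. Of the 13, 2 were lower at an unadjusted p under 0.05. Aldh1l2, a mitochondrial folate enzyme, rose by 1.31 (SE 0.19, adjusted p = 0.00211). Idh2, the mitochondrial NADP-dependent isocitrate dehydrogenase, rose by 1.02 (SE 0.16, adjusted p = 0.00281) on 1 of its 2 probe sets and by 0.52 with both averaged. H6pd, a hexose phosphate dehydrogenase of the endoplasmic reticulum, rose by 0.74, a call lost without control 1 (adjusted p = 0.0719). The cytosolic Idh1 had a change of 0.21 (adjusted p = 0.329), and Pgd, of the pentose phosphate pathway, one of -0.02 (adjusted p = 0.969). Without dKO 3, 2 genes of this list were called lower. Of 10 tested NFE2L2 targets other than Me1, 3 were higher at an unadjusted p under 0.05, and 2 were called without dKO 1. With all arrays 1 of the 10 was called higher, beside 12.6% of all genes. This was Gstm1, a glutathione transferase gene (1.84, SE 0.15, adjusted p = 0.000210). It was read from an x_at probe set, and its change was 1.27 with its probe sets averaged. Nqo1 and Gclc had changes of 0.45 and 0.47 (adjusted p = 0.134 and 0.0964).

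Of 9 tested relatives and electron carriers of the desaturases, 1 was lower, beside 9.38% of all genes, and 0 were higher in limma (1 higher at an unadjusted p under 0.05), with a median change of -0.08. Fads6 was the one that fell (-1.83, SE 0.43, adjusted p = 0.0177), on 1 of 2 probe sets and not without control 2 or dKO 2 (adjusted p up to 0.0638). In the RefSeq gene order Fads3 adjoins Fads2, which adjoins Fads1, and Fads3 had a change of 0.22 (adjusted p = 0.383). Scd3 adjoins Scd2, and 1 gene, Scd4, lies between Scd2 and Scd1. Scd3 read 4.29, 3.93 and 4.12 in control and 3.85, 3.72 and 3.66 in dKO, and was not tested because it reached the limit of 4 on 2 arrays, both control, where 3 were needed. The cytochrome b5 gene Cyb5a and the reductase gene Cyb5r3, which pass electrons to the desaturases, had changes of -0.27 and -0.08 (adjusted p = 0.238 and 0.794).

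Chain elongation genes moved in both directions, with 5 of 12 lower, 2 higher and a median change of -0.41. Over all genes 9.38% were lower and 12.6% higher. Elovl7 had a log2 change of -3.59, Elovl6 one of -1.90 and Elovl1 one of -1.87 (adjusted p = 0.00213, 0.00213 and 0.00227). Elovl2 and Elovl5, elongases of polyunsaturated chains that work in alternation with Fads2 and Fads1, rose by 2.71 and 0.92 (SE 0.16 and 0.14, adjusted p = 7.45e-05 and 0.00271). Elovl2 read 5.11, 4.96 and 4.92 in control and 7.64, 7.96 and 7.498 in dKO. The shared enzymes of the cycle Tecr and Hsd17b12 fell by 0.70 and 0.65 (adjusted p = 0.0437 and 0.0112), but Tecr did not pass when dKO 1, dKO 3 or any control array was left out (adjusted p at most 0.124).

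Of 12 other acyl-CoA synthetase, transport and binding genes tested beside Acsl3, 1 rose and 1 fell. Over all genes 12.6% rose and 9.38% fell. Acsbg1, a synthetase known from brain and steroidogenic tissue, was at 5.29 ± 0.55 in control and 7.26 ± 0.21 in dKO nerves, a rise of 1.97 (SE 0.27, adjusted p = 0.00162). Slc27a1, a fatty acid transport protein gene, fell by 0.47, a call lost when any one array was left out (adjusted p up to 0.110), with a replicate block (0.104) or with its probe sets averaged (0.0632). Acsl4 and Acsl5 had changes of 0.43 and 0.08 (adjusted p = 0.185 and 0.771). In glycerolipid assembly and breakdown 2 of 16 were lower and 1 higher, beside the same shares of all genes. Mgll, a monoacylglycerol lipase, fell by 3.54 (SE 0.31, adjusted p = 0.000285) on all 4 probe sets. Agpat3, an acyltransferase of phospholipid synthesis, fell by 1.01 on 1 of 4, and by 0.41 with the 4 averaged (adjusted p = 0.0415). Lpin2, a phosphatidate phosphatase, rose by 0.82 on 1 of 4. It did not pass with its probe sets averaged (adjusted p = 0.0852), nor with control 1 or 2 or dKO 1 or 2 left out (0.0797 at most). Gpam and Dgat2, at the first and last step of triglyceride synthesis, had changes of -0.13 and -0.36 (adjusted p = 0.624 and 0.154).

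Of 26 tested regulators of lipogenesis, 4 fell and 2 rose, with a median change of -0.05. Among all genes tested, 9.38% fell and 12.6% rose (22.0% in either direction). Insig1, the sterol-regulated retention protein and itself a target of SREBP factors, read 11.97, 12.33 and 12.22 in control and 10.94, 10.64 and 10.43 in dKO. Its log2 change was -1.503 (SE 0.18, adjusted p = 0.000879), with no overlap of the groups. Srebf2, the SREBP gene best known for cholesterol synthesis, fell by 0.82 (SE 0.17, adjusted p = 0.0114, both probe sets called). Srebf1, best known for fatty acid synthesis, had a change of -0.17 (SE 0.21, adjusted p = 0.600), and Scap, the SREBP escort, one of 0.40 (adjusted p = 0.232). Ppara, a nuclear receptor of fatty acid oxidation, fell by 1.53 (adjusted p = 0.00536, 1 of 3 probe sets called), and by 0.80 with the 3 averaged. Usf2 fell by 0.86 (adjusted p = 0.0148), a call lost without control 2 (adjusted p = 0.0583), and by 0.52 with its 2 probe sets averaged. The coactivator genes Ppargc1a and Ppargc1b rose by 1.56 and 0.75 (adjusted p = 0.00670 and 0.00880), and all 5 tested probe sets of Ppargc1a were called. Nfe2l2 had a change of -0.90 (SE 0.28, adjusted p = 0.0532).

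**Figure D4:**
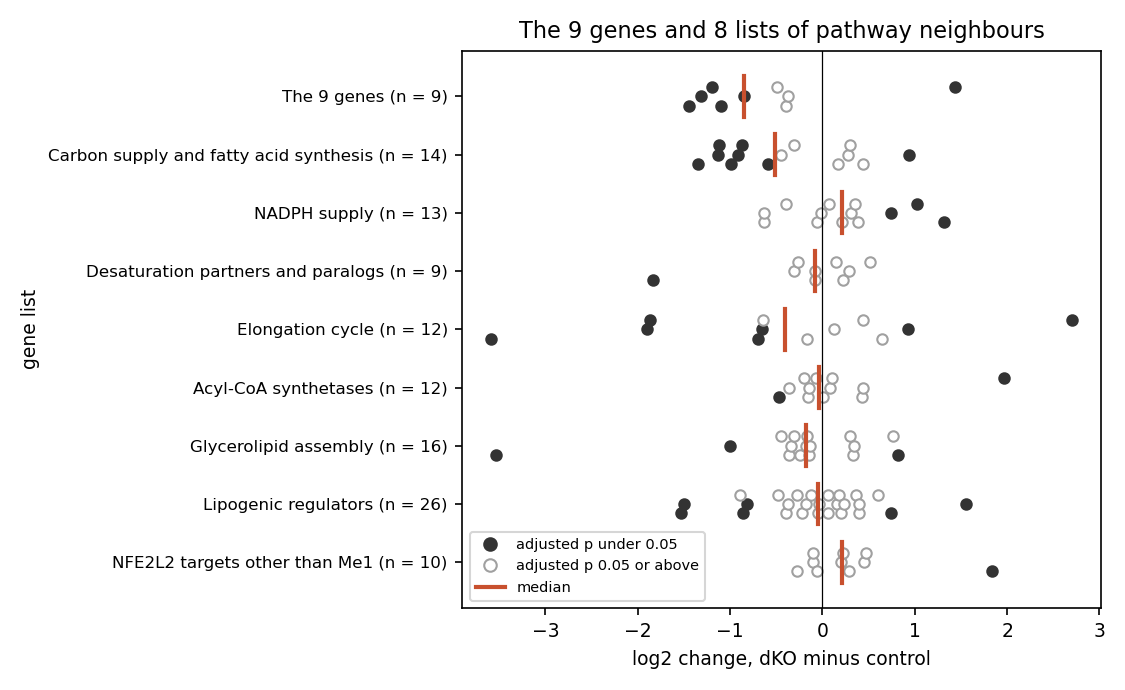
Log2 change (dKO minus control, x axis) of the 9 genes and of the tested genes on 8 lists of pathway neighbours, filled where the adjusted p was under 0.05, with the median of each list as a bar. The medians run from -0.84 for the 9 genes to 0.21 for NADPH supply and NFE2L2 targets, and the elongation cycle has members far out on both sides.

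For the 5 genes called with a log2 change of at least 1 in size, the genes with the most similar profile were sought as those with the smallest mean absolute difference over the 6 arrays, each value taken relative to the gene's own control mean. Fam53b and Rmdn1 lay closest to Acaca (differences of 0.03 and 0.06 log2 units) and Tnfaip8l1 and Lurap1 closest to Fasn (0.09 for both). Gpd2, a mitochondrial glycerol phosphate dehydrogenase, and P2rx7, an ATP-gated channel, lay closest to Scd1 (0.08 for both). Rnf130 and the lysophosphatidic acid receptor gene Lpar1 lay closest to Scd2 (0.12 for both). Col9a1, a collagen gene, and Madd lay closest to Me1 (0.04 and 0.09). None of these genes is on the lists above, and with 2 groups of 3 arrays such likeness rests mainly on the size of the change.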

How the data were processed

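Total RNA of 6 sciatic nerve samples, prepared with a lipid tissue kit, was hybridised by the authors to Mouse Genome 430 2.0 arrays from Affymetrix, as the labels' protocols state. Their deposited table gives log2 expression for each probe set. The submitters' processing notes name GCOS 1.2 and GCRMA, with settings not given in the sources used here. The log2 scale was inferred from the values (1.66 to 14.94). All 6 arrays had the same distribution within 0.01, so a shift of all genes together would not be seen. Precision is limited by the number of arrays (median SE of a change 0.17 log2 units).

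Groups and replicate numbers came from the sample titles. Of 45101 probe sets, 34958 had 1 gene symbol, which was brought up to date by gene ID from RefSeq (GRCm38.p6). A gene's level was its probe set with the highest mean over the 6 arrays. The filter kept genes that reached 4 on the log2 scale on 3 or more arrays (14550 of 18194). They were fitted with limma 3.58.1 in R 4.3.3 (lmFit, eBayes, no covariates), with Benjamini-Hochberg adjustment over all of them and a threshold of 0.05. Adjusted p-values of single probe sets are over the 27718 probe sets that passed the same filter. The fit was tested on simulated data for this comparison (14550 genes, 200 changed). It recovered 53% of changes of 1 log2 unit and 96% of changes of 2, and 5.7% of its calls were false. Far more genes, 3198, were called in the data, so these rates may differ there. Summed marker levels add values turned back from log2.

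The 9 genes and all lists were chosen with earlier results of these data known. The rule for named genes took the 9 genes, Hdac1 and Hdac2, up to 4 called genes of largest change per list of pathway neighbours, a fixed set of regulators and related enzymes, and the 2 nearest profiles of each called gene of at least 2-fold change. Acot7, Tecr, Hsd17b12, Ppargc1b, Fabp4, Lpl, Aif1, Pgd, Nqo1, Gclc, Cyb5a, Cyb5r3, Acsl4, Acsl5 and Nfe2l2 were named after their values were seen. G6pdx, Acsl1, Scd4 and other list genes without a probe set named here were not analysed here. Settings that were varied were the probe set of a gene, the low-value limit, the scaling, the prior, the replicate number as a block, and each array left out.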

Additional observations from a re-analysis of the deposited data

How the results depend on the processing

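With single arrays left out, the log2 change ran from -1.42 to -1.20 for Acaca, -1.37 to -1.004 for Fasn, -1.64 to -1.22 for Scd1, -0.91 to -0.77 for Acsl3 and 1.36 to 1.51 for Me1, and these 5 genes were called in every fit that was run. Scd2 ran from -1.36 to -0.70 and was not called in 4 of those 6 fits. Its call was kept under all the other settings. Fads1 (-0.69 to -0.09) was called under none. Acly was called with centred arrays (-0.45, adjusted p = 0.0469), with an intensity trend and robust prior (-0.37, adjusted p = 0.0342) and without x_at probe sets (-0.65), and Fads2 with averaged probe sets (-0.47) and centred arrays (-0.48). With probe sets averaged, Scd2 minus Scd1 changed by -0.12 and Fads2 minus Fads1 by -0.073, both opposite in sign to the values of the probe sets used, and the latter ranged from -0.30 to 0.31 with single arrays left out. The cause was not tested.

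The replicate block gave 2557 called genes against 3198, and 5 lower and 1 higher of the 9. Same-numbered samples did not deviate together (correlations of 0.04, -0.12 and -0.24). With deviations taken from means of 3 arrays, such values cannot tell whether the number marks a real pairing. Over all settings the number of called genes ran from 2178 to 3479. List counts that moved by over 1.5 times were as follows. Acyl-CoA synthetases had 0 lower with the block, with averaged or most variable probe sets and without any one array, and 2 higher without a filter. Glycerolipid genes had 2 higher with the block, the limit of 6 or the trend, and 0 to 1 with arrays left out. Carbon supply had 2 higher with averaged probe sets, and 4 to 6 lower and 1 to 2 higher with arrays left out. Desaturase relatives had 1 higher with averaged probe sets, 2 lower with the trend, and 0 to 1 lower and 0 to 1 higher with arrays left out. NFE2L2 targets had 2 higher with averaged or most variable probe sets, and 1 to 2 with arrays left out. NADPH supply had 1 lower with the limit of 6 or centred arrays, and 0 to 2 with arrays left out. Regulators had 1 higher with the limit of 6. Signal under a log2 value of 4 says little about levels, which limits Scd3 and other genes near that value.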
